A study of Mus musculus with 16 samples.

Results

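The baseline described here is the amygdala transcriptome of juvenile mice whose dams were left undisturbed during pregnancy. Members were all libraries with the control label, which gave 8 of the 16 libraries of the series. They came from C57BL/6 mice (C57BL6/J in the study's methods) killed on postnatal day 28, with 4 males (LM17 to LM20) and 4 females (LM21 to LM24) taken from different litters within each sex, and are called CTRL. The other 8 libraries, called PS, came from age-matched offspring (4 males and 4 females) of dams under psychosocial stress in gestation, and served to see whether the same genes varied there and to share the estimate of spread in the comparison of the sexes. The labels name no allele, transgene or drug for either group. Tissue was dissected from frozen brain, so that each library holds RNA of every cell type in the piece taken.

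The amygdala joins a cortex-like basolateral complex, built mostly of glutamatergic principal neurons with a minority of GABAergic interneurons, to central and medial nuclei whose neurons are mainly GABAergic or of hypothalamic descent. Glutamate and GABA carry its fast signals, while neuropeptides, monoamines and steroid hormones tune them. In the basolateral complex, interneurons are commonly told apart by somatostatin, cholecystokinin, vasoactive intestinal peptide and parvalbumin.

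The deposited table lists 17293 genes. Levels are given in CPM, a unit that scales every library to the same total, which the authors computed after removing unwanted variation. The corrected values summed to between 40918079 and 43687812 per CTRL library. Since the correction was made by the authors on all 16 libraries, these sums are not read totals and no counting interval is given; precision is that of 8 libraries. Within groups the libraries correlated across genes at 0.9965 to 0.9985, no 2 libraries held identical values (0 identical pairs), and Xist and Ddx3y matched the labelled sex in all 8. The 2 directions that the correction had taken out of the 12 within-group directions bore unequally on the CTRL libraries. Their share of a library's own direction ran from 0.0285 in LM20 to 0.286 in LM17, and whatever variation they held can no longer be seen.

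A gene was counted as expressed when its mean passed 0.5 CPM in CTRL males or CTRL females. In all, 14244 genes were expressed, of which 13571 were protein coding, and 368 genes of the table were listed at 0 in all 8 libraries. Levels were spread broadly. The 20 most abundant genes held 6.19% ± 0.191 of the CPM (SD, n = 8) and the first 100 held 16.8% ± 0.381, while 98 genes had a mean over 1000 CPM and 2361 a mean over 100 CPM.

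By CPM, the highest levels belonged to Rn45s (6213 ± 1403, SD, n = 8), the ribosomal RNA precursor, and Meg3 (6095 ± 372), an imprinted noncoding RNA. Rn45s was also among the least even of the abundant genes, with 4466 CPM in its lowest library and 8072 in its highest. Camk2a, the calcium/calmodulin-dependent kinase of glutamatergic synapses, followed with 4772 ± 516 CPM, ahead of the astrocytic glutamate transporter Slc1a2 (3304 ± 208). Also high were the peptide-processing carboxypeptidase Cpe (2813 ± 123), the noncoding host gene Snhg11 (2743 ± 175), the sodium pump subunit Atp1b1 (2704 ± 136) and the dendritic protein Map2 (2624 ± 142). The others described here among the first 20 were mostly neuronal too, with the membrane protein Gpm6a, the vesicle protein Syt1, the pentraxin receptor Nptxr with Npcd, the dendritic protein Ddn, the fusion protein Snap25, the calcium sensor Hpcal4, the microtubule protein Map1b, the AMPA receptor subunit Gria2 and the calcineurin subunit Ppp3ca, between 2069 and 2611 CPM. Nptxr and Npcd share 890 exonic bases on the same strand, so their levels are not separate measurements.

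Long genes collect more reads, and levels of different genes were therefore compared as CPM per kilobase of annotated exons (CPM per kb; GENCODE M21, mm10). On that scale the first place went to Snurf, at 3707 ± 237 CPM per kb (SD, n = 8), but its whole 216-base model lies inside another gene on the same strand. Npcd (1685 ± 329) was next, with 890 of its 1453 exonic bases shared with Nptxr. The miRNA gene Mir6236 (1556 ± 307, 123 bases) and Gm37013 (999 ± 33.0, with 222 of its 313 bases inside Pcdha6) are short models. The levels of these genes are uncertain. With these left aside, the calmodulin gene Calm2 led with 1101 ± 53.8 CPM per kb, followed by Cpe (1078 ± 47.1). Then came Nrgn (934 ± 101), which encodes the calmodulin-binding postsynaptic protein neurogranin, Atp1b1 (878 ± 44.1) and Gpm6a (812 ± 59.2). Tmsb4x (770 ± 65.3), which encodes an actin-binding peptide, was lower. Another calmodulin gene, Calm3, had 542 ± 28.5 CPM per kb. Ddn, Camk2a, Hsp90ab1, Aldoa, Nptxr, Ncdn, Sparcl1 and Ppp3r1 also stood among the first 20, from 475 to 649 CPM per kb.

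To ask which subtype of each signalling family was the most abundant, 31 families of receptors, channels and peptide precursors were put in order of CPM per kb, and neighbours in each order were compared within libraries. Of 243 neighbour pairs, 142 (58.4%) were separated by an exact two-sided sign-flip permutation test over the 8 libraries (adjusted p under 0.05), and 101 were not. The smallest p this test allows is 0.00781. In 29 of the 31 families the first member stood apart from the second. Exon length matters to such orders. With the longest annotated transcript as the length, 42 neighbour pairs changed places, among them 14 of the 142 separated ones and 2 of the first pairs, named below.

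**Figure D1:**
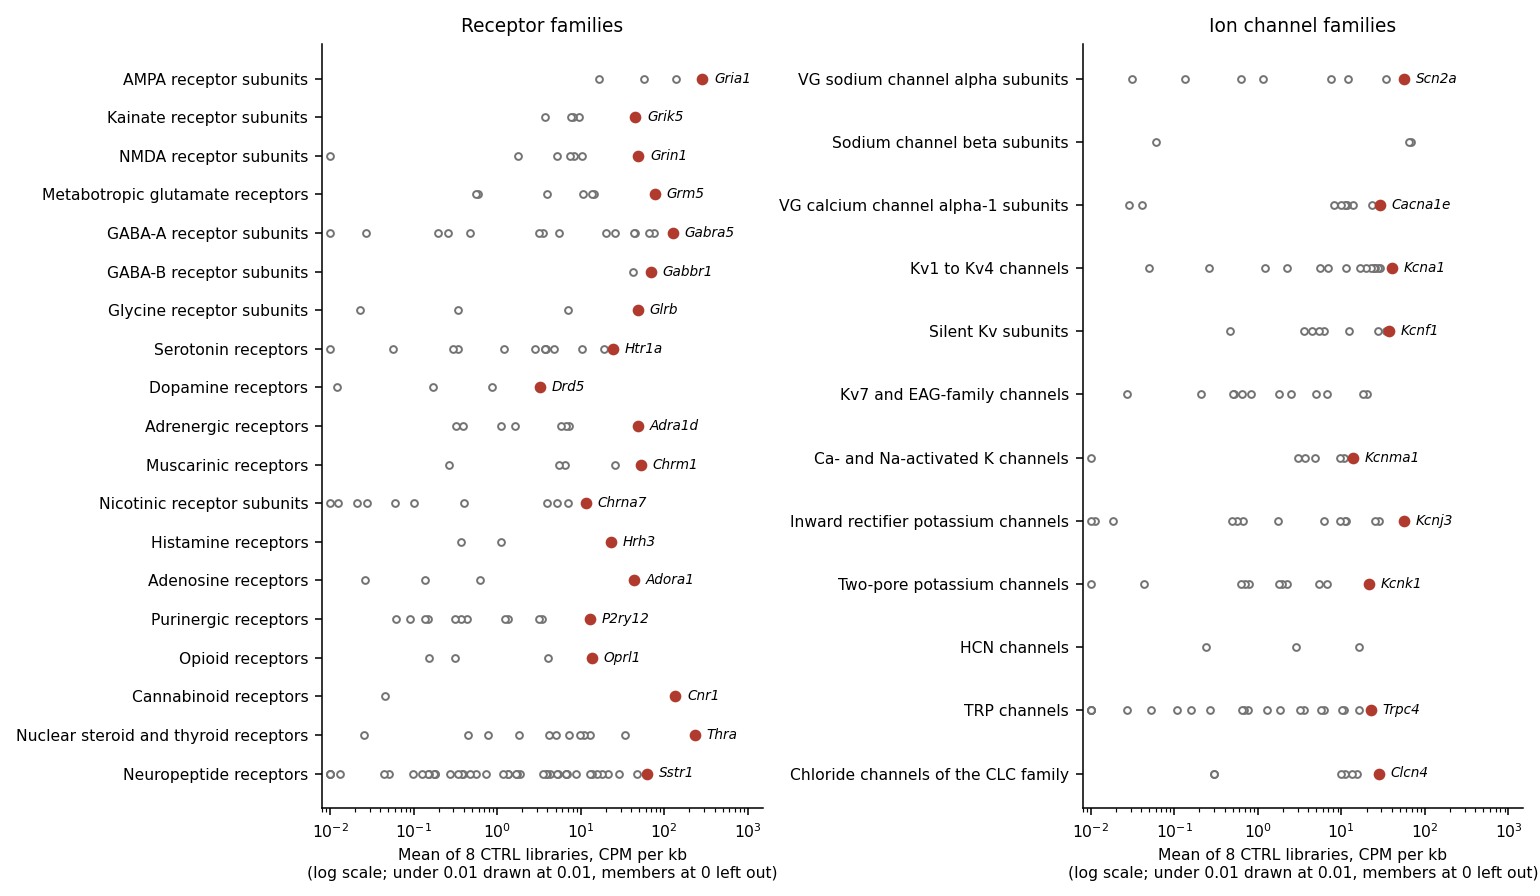
Mean CPM per kb of the members (circles; 5 left out) of the receptor families (left) and ion channel families (right) in the 8 CTRL libraries, on log axes, with the highest member filled in red and named, except in 3 channel families. Families such as the adenosine and cannabinoid receptors have 1 member far ahead, while calcium channel and Kv members crowd together.

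Glutamate receptors were led by AMPA subunits. Gria1, on chromosome 11 from 57011387 to 57330244, had 1614, 1691, 1769 and 1722 CPM in the males and 1618, 1779, 1893 and 1746 CPM in the females, so that no library stood out and the sexes overlapped. Per kb it reached 286 ± 15.1, against 138 ± 4.20 for Gria2, the subunit that makes the channel impermeable to calcium, a log2 ratio of 1.05 with Gria1 higher in 8 of 8 libraries (exact sign-flip permutation test, adjusted p = 0.0148). Gria3 (56.7 ± 3.31) and Gria4 (16.7 ± 0.612) came after. Gria1 made up 57.5% of the summed subunit level.

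Among NMDA subunits the obligatory Grin1 led with 49.1 ± 3.71 CPM per kb. The modulatory subunit Grin2b (10.5 ± 1.45) stood next and above Grin3a (8.40 ± 0.728) by a log2 ratio of 0.31, but this order turns with the longest transcript (-0.36). Grin3b stayed under 0.1 CPM in all 8 libraries. Grin1 shares 1307 bases with its antisense gene Grin1os, and whether the counting used strand is not given in the sources used here. Of the kainate subunits Grik5 (45.2 ± 2.63 CPM per kb) was far above Grik4 (9.60 ± 0.959) and Grik3 (8.13 ± 0.944). Grm5, the postsynaptic metabotropic receptor coupled to phospholipase C, had 77.7 ± 3.21 CPM per kb, a log2 ratio of 2.44 over Grm3 (14.4 ± 2.21). Grm3 and Grm7 (13.6 ± 0.925) were not separated (exact sign-flip permutation test, adjusted p = 0.571). With the longest transcript Grm7 stood above Grm3 (log2 ratio of Grm3 over Grm7 -0.41, sign-flip test, adjusted p = 0.0247).

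GABA-A subunits were more evenly shared. Gabra5, known for extrasynaptic receptors, came first at 127 ± 8.52 CPM per kb and made up 24.7% of the summed level, with the beta subunit Gabrb2 at 75.6 ± 6.16. In single libraries Gabra5 had 371, 385, 362 and 392 CPM in males and 342, 421, 395 and 355 CPM in females, with overlapping sexes. Of 17 measured subunits 13 passed 0.5 CPM. Gabra6, a cerebellar subunit, was listed at 0 and Gabre stayed under 0.1 CPM. Both GABA-B subunits were present, Gabbr1 at 68.7 ± 2.81 and Gabbr2 at 42.1 ± 5.01 CPM per kb. Of the glycine receptor genes, Glrb (48.2 ± 1.57) led over Glra2 (6.98 ± 1.41) and Glra3 (0.341 ± 0.101), and Glra4 was listed at 0.

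Monoamine receptors lay lower, and in each class 1 or 2 subtypes took most of the level. Htr1a, the inhibitory serotonin receptor, had 119, 116, 124 and 86.7 CPM in males and 93.7, 107, 117 and 100.5 CPM in females. At 24.1 ± 2.96 CPM per kb it stood above the ionotropic Htr3a (19.2 ± 2.34; log2 ratio 0.33, exact sign-flip permutation test, adjusted p = 0.0148) and Htr2c (10.4 ± 1.40), whereas Htr3b stayed under 0.1 CPM.

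Dopamine receptors were scarce. Drd5 had 12.8, 9.26, 14.04 and 8.61 CPM in males and 9.89, 8.01, 8.67 and 11.8 CPM in females. Drd1, its fellow receptor coupled to cyclic AMP production, had 2.30, 3.61, 4.91 and 3.18 CPM in males and 2.10, 2.11, 3.31 and 3.45 CPM in females, so that every library had Drd5 above Drd1. Per kb the levels were 3.30 ± 0.705 and 0.860 ± 0.262, a log2 ratio of 1.96 (exact sign-flip permutation test, adjusted p = 0.0148). Drd2 had a mean of 0.434 CPM, Drd4 stayed under 0.1 CPM and Drd3 was listed at 0. Drd5 shares 1531 of its 3152 exonic bases with Gm26560 on the opposite strand.

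Adra1d was the first adrenergic receptor by a log2 ratio of 2.67 (48.8 ± 19.3 CPM per kb, against 7.20 ± 1.11 for Adra2a and 6.61 ± 0.731 for Adra2c), and Adra2b was listed at 0. It was also among the less even receptor genes, with 95.7, 45.9, 47.4 and 79.0 CPM in males and 97.6, 160, 105 and 112 CPM in females. All 4 females were above all 4 males, but the difference did not pass limma (log2 difference 0.85, 0 of 477 tested list members with an adjusted p under 0.05).

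Receptors for acetylcholine, histamine and adenosine were next. Chrm1 (52.0 ± 3.57 CPM per kb) and Chrm4 (25.4 ± 3.89) led the muscarinic receptors over Chrm5 (6.46 ± 2.17). Among nicotinic subunits, Chrna7 (11.5 ± 0.835), Chrnb2 (6.96 ± 0.391) and Chrna5 (5.14 ± 2.10) came first, and Chrna6, Chrna10, Chrnb4 and Chrne were each under 0.1 CPM in all 8 libraries. Hrh3, a presynaptic histamine receptor, made up 93.9% of its family (22.99 ± 2.36 CPM per kb), with Hrh1 and Hrh2 at 1.10 ± 0.211 and 0.367 ± 0.0476. Adora1, the inhibitory adenosine receptor, made up 98.2% of its own (43.1 ± 4.41), over Adora2b (0.615 ± 0.0873) and Adora3 (0.136 ± 0.0251), though 1162 of its exonic bases overlap Mybph on the opposite strand.

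Cnr1, the cannabinoid receptor of axon terminals, had 135.9 ± 16.04 CPM per kb, and Cnr2 a mean of 0.183 CPM. The opioid receptor order was Oprl1 (13.7 ± 1.56 CPM per kb), the nociceptin receptor, then Oprd1 (4.08 ± 0.533) and Oprm1 (0.314 ± 0.0711). Each step was separated by the sign-flip test. Of the purinergic receptors the microglial P2ry12 led (12.8 ± 0.742), before P2ry13 (3.45 ± 0.468) and P2rx5 (3.20 ± 1.40), and P2rx2 was listed at 0.

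Among nuclear receptors, the thyroid hormone receptor Thra held 71.1% of the summed level (232 ± 7.21 CPM per kb). The mineralocorticoid receptor Nr3c2 was next at 34.1 ± 4.45, followed by Thrb (13 ± 1.47). The glucocorticoid receptor Nr3c1, stood at 10.9 ± 0.886 CPM per kb. Nr3c2 had 218, 188, 189 and 199.9 CPM in males and 217, 265, 236 and 254 CPM in females, and Nr3c1 had 81.6, 81.3, 77.9 and 81.8 CPM in males and 80.9, 79.4, 85.6 and 99.4 CPM in females. In CPM, each library thus had more of the high-affinity corticosteroid receptor transcript than of the low-affinity one.

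Neuropeptide receptors were headed by Sstr1, a somatostatin receptor, at 62.5 ± 3.46 CPM per kb, then the neuropeptide Y receptor Npy2r (47.2 ± 10.9), the PACAP receptor Adcyap1r1 (28.8 ± 2.24), Sstr4 (20.95 ± 3.497), Npy1r (18.2 ± 0.937) and the neurotensin receptor Ntsr2 (15.5 ± 1.09). Further down were Trhr (13.7 ± 2.51), Sstr3 (13.1 ± 1.26), Mchr1 (8.70 ± 0.954), Vipr1 (6.79 ± 0.929), Tacr3 (6.71 ± 2.95) and the oxytocin receptor Oxtr (6.68 ± 2.17). The first 3 steps were separated by the sign-flip test, while Sstr4 and Npy1r, Ntsr2 and Trhr, Trhr and Sstr3, Vipr1 and Tacr3, and Tacr3 and Oxtr were not. Of 49 measured genes 36 passed 0.5 CPM. Trhr2, Prlhr, Sstr5, Galr3, Cckar, Mc3r, Nmur2, Npffr2 and Calcr stayed under 0.1 CPM in every CTRL library.

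Ion channel families showed narrower orders. Of the sodium channel alpha subunits Scn2a led (56.5 ± 3.28 CPM per kb), over Scn8a (34.4 ± 2.36) and Scn1a (12.1 ± 1.44), the alpha subunit typical of parvalbumin interneurons. Scn4a and Scn10a, of muscle and of sensory neurons, were listed at 0. The beta subunits Scn2b (68.4 ± 3.83 CPM per kb) and Scn3b (65.0 ± 5.44) were not separated (exact sign-flip permutation test, adjusted p = 0.0624). With the longest transcript Scn3b stood above Scn2b (log2 ratio of Scn2b over Scn3b -0.32, sign-flip test, adjusted p = 0.0137).

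Calcium channel alpha-1 subunits were led by the R-type Cacna1e (28.9 ± 1.61 CPM per kb) and the N-type Cacna1b (22.96 ± 1.53), with the T-type Cacna1h next (13.7 ± 1.06). Kcna1 (40.3 ± 4.93) stood over Kcnd3 (28.8 ± 1.72) and Kcnc2 (27.4 ± 3.17) among 16 measured Kv genes, of which 15 passed 0.5 CPM. The silent subunits Kcnf1 (36.8 ± 3.66) and Kcnv1 (34.4 ± 6.35) were not separated (exact sign-flip permutation test, adjusted p = 0.153), with Kcng1 at 27.2 ± 2.65 and Kcnv2 listed at 0. Kcnh3 (20.01 ± 1.52) and Kcnq5 (18.4 ± 1.92) were not separated (exact sign-flip permutation test, adjusted p = 0.0624). With the longest transcript they were, Kcnh3 being higher (log2 ratio 0.63, sign-flip test, adjusted p = 0.0137).

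The large-conductance channel Kcnma1 (13.8 ± 1.42 CPM per kb) was above the small-conductance Kcnn2 (10.8 ± 1.46) by a log2 ratio of 0.36. With the longest transcript the ratio was -0.17, still separated by the sign-flip test (adjusted p = 0.0452), so the order of the pair rests on the length used. Kcnt2 had 9.58 ± 0.616, and Kcnn4 stayed under 0.1 CPM. Kcnj3 (55.6 ± 6.21), a subunit of the potassium channels opened by G proteins, led the inward rectifiers over Kcnj4 (28.2 ± 2.98) and Kcnj9 (25.1 ± 2.88), with Kcnj5 and Kcnj13 under 0.1 CPM. Kcnk1 led the two-pore channels (21.4 ± 1.28), over Kcnk2 (6.64 ± 0.647) and Kcnk12 (5.47 ± 0.960), with Kcnk7 under 0.1 CPM.

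Of the pacemaker channels, Hcn2 (16.3 ± 3.08 CPM per kb) stood over Hcn3 (2.85 ± 0.254) by a log2 ratio of 2.50. Trpc4 (22.3 ± 3.06), Trpc5 (16.1 ± 2.08) and Trpc6 (10.9 ± 3.95) led the TRP channels, whereas Trpv1, Trpv4, Trpm1, Trpm5 and Mcoln2 were each under 0.1 CPM in all libraries. The chloride transporters Clcn4 (28.2 ± 0.845), Clcn3 (15.4 ± 0.486) and Clcn6 (13.4 ± 0.342) were the most even between libraries, with a median SD of 0.05 (log2 scale, defined below) over the 7 genes of the family.

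Of the genes for transmitter synthesis and transport, those for glutamate had the highest means. The vesicular glutamate transporter Slc17a7 had 365 ± 61.3 CPM per kb, the glial enzyme Glul 345 ± 40.7 and Slc1a2 252 ± 15.9, and the order of Slc17a7 and Glul, whose ranges overlapped, was not tested. Slc17a7 had 2371, 1607, 1612 and 2286 CPM in males and 2010, 2225, 2054 and 1557 CPM in females. LM18, LM19 and LM24 formed its lower end in both sexes. Slc17a6, the transporter of thalamic and hypothalamic glutamate neurons, had a mean of 5.91 ± 1.10 CPM. Chat and Slc18a3, both of cholinergic neurons, were listed at 0, and the histamine enzyme Hdc stayed under 0.1 CPM.

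Neuropeptide precursors were a second set in which few genes carried most of the level. Of 46 measured genes 29 passed 0.5 CPM, and Sst made up 26.7% and Cck 18.9% of the summed CPM per kb. Sst, which encodes somatostatin, had 216, 274, 247 and 217 CPM in males and 216, 218, 209.6 and 210.1 CPM in females, LM18 being highest. Cck, which encodes cholecystokinin, had 340, 259, 204 and 302 CPM in males and 329, 357, 262 and 272 CPM in females, with LM19 lowest. The sexes overlapped for both.

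Per kb Sst (313 ± 31.6) stood above Cck (223 ± 39.0) by a log2 ratio of 0.51, higher in 8 of 8 libraries (exact sign-flip permutation test, adjusted p = 0.0148). With the longest transcript of Cck, which is shorter than the union of its exons, the ratio was -0.20 and not separated (adjusted p = 0.194). Which of the 2 led is thus not settled by these values. Both were above the granin-related genes Scg3 (108 ± 7.41), Chgb (108 ± 19.01) and Scg5 (76.7 ± 5.78), whose products serve dense-core vesicles.

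Somatostatin transcription is a textbook case of control by cyclic AMP, through an element bound by CREB. The RefSeq window before the Sst start is shown because Sst was, with Cck, 1 of the 2 highest precursors per kb, and holds that element. It covers the 250 bases upstream of the RefSeq start (GRCm38.p6, chr16:23890845-23891094, minus strand, partly within the longer GENCODE gene model), with the match in capitals.
Sst: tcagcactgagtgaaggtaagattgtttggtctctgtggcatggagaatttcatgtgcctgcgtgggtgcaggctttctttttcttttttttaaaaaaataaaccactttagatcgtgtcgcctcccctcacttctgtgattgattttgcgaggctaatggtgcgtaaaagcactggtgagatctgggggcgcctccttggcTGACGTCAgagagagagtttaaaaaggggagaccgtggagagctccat
The letters searched were TGACGTCA, the same on both strands, and the window held 1 match. Of 32851 RefSeq promoters 1.55% held it within 250 bases upstream. A match describes letters only.

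Grp, which encodes gastrin-releasing peptide, had 101, 52.7, 58.6 and 101 CPM in males and 111, 163, 125 and 153 CPM in females, with all females above all males. The difference did not pass limma (log2 difference 0.85), and Grp (73.1 ± 26.8 CPM per kb) was not separated from Scg5 or from Vgf (55.4 ± 5.59). Npy (53.2 ± 5.20), Scg2 (51.4 ± 9.98) and Chga (34.9 ± 3.05) followed. Vip (17.9 ± 2.86) and Trh (17.2 ± 11.8), the thyrotropin-releasing hormone gene, closed the first 12.

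At the other end, Ucn, Gast, Ghrh, Gal and Qrfp were under 0.1 CPM in each library, and Oxt, Pmch, Nmu, Kiss1, Hcrt, Npb and Ucn3 were listed at 0. Several peptides of central amygdala neurons lay low. Crh, the corticotropin-releasing hormone gene, had 2.11, 4.45, 4.29 and 2.98 CPM in males and 1.87, 1.24, 2.08 and 1.32 CPM in females, and Penk, the enkephalin precursor, had 2.86, 6.64, 6.53 and 7.42 CPM in males and 2.85, 2.44, 5.71 and 4.50 CPM in females. Crh did not overlap between the sexes and did not pass limma. Crh, Nr3c1 and a few other genes named here for contrast fall outside the rule by which genes were chosen, and were added after their values were seen.

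**Figure D2:**
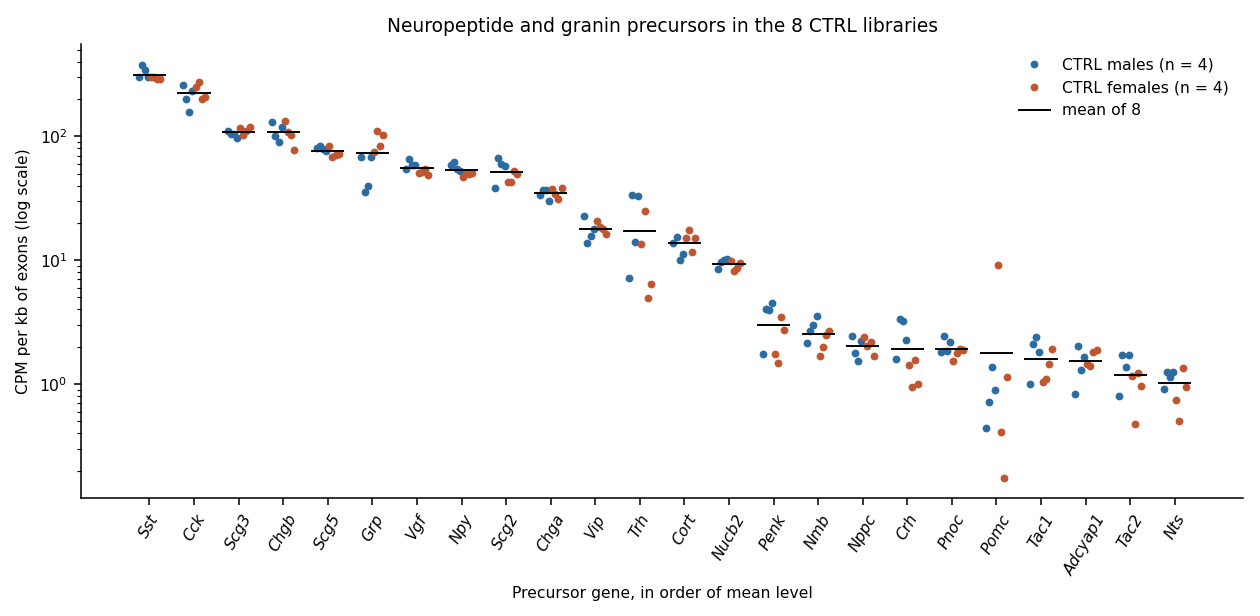
CPM per kb (log axis) of the 24 most abundant neuropeptide and granin precursors in each CTRL library, males in blue and females in orange, with the mean of the 8 as a bar. Sst and Cck lie highest, Trh and Grp spread widely, and 1 female library stands far above the others for Pomc.

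The dissection was checked with markers of amygdala nuclei and of neighbouring regions. Genes of basolateral principal neurons were well represented: Lypd1 had 354 ± 74.8 CPM (SD, n = 8), the Wnt agonist Rspo2 123 ± 20.2 and the transcription factor Etv1 256.2 ± 50.8. Of 6 basolateral genes all 6 passed 0.5 CPM, and their summed level ran from 738 to 993 CPM. Genes of the central nucleus and intercalated cells were much lower, with 10 of 12 above 0.5 CPM and a median member of 2.68 CPM. Ppp1r1b was a member of both lists. The summed level of that list (96.6 to 150.5 CPM) came mostly from Tshz1 (40.6 ± 6.09), Sema3c (27.8 ± 4.38) and Meis2, and Prkcd, a defining gene of the lateral central nucleus, had 1.40 ± 0.651 CPM. Of 10 medial amygdala and hypothalamus-derived genes, Lhx9 had 28.0 ± 5.46 CPM and Tac1 5.46 ± 1.85, Otp and Sim1 were listed at 0, and Lhx5 and Cyp19a1 were under 0.1 CPM. The listed basolateral genes were thus present. Defining genes of the central nucleus (Prkcd) and of hypothalamus-derived neurons (Otp, Sim1) were low or listed at 0. What share of the basolateral list came from basolateral cells was not tested.

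All 12 listed markers of the neighbouring hippocampus passed 0.5 CPM, with a median member at 28.8 CPM beside 119 CPM for the 6 basolateral genes. C1ql3 had 831 ± 85.8 CPM, Fibcd1 809 ± 219 and C1ql2, a dentate gyrus gene, 72.6 ± 41.3. The summed level ran from 1354 CPM in LM18 to 2507 CPM in LM22. In every library it was above the sum of the shorter basolateral list (738 to 993 CPM). Fibcd1 had 743, 435, 593 and 899 CPM in males and 862, 1147, 840 and 951 CPM in females. Some of these genes are also active in amygdala or cortex, and what share came from hippocampal cells was not tested. Cortical genes such as Fezf2 (122 ± 41.2), Bcl11b (228 ± 19.5) and Nr4a2 (78.0 ± 22.8) were also present.

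Lists of other neighbours had lower medians than the hippocampal and cortical ones. The striatal median (2.01 CPM) and the thalamic one given below were close to that of the central nucleus and intercalated list (2.68 CPM). Striatal genes other than Pde10a (80.4 ± 20.6), Rxrg (9.69 ± 3.30) and Rgs9 (10.8 ± 3.93) had means under 4 CPM, and Six3 was listed at 0. In the hypothalamic list 7 of 9 measured genes stayed under 0.1 CPM (Ghrh, Nkx2-1, Gal, Oxt, Pmch, Hcrt and Otp). Thalamic and habenular genes stood at a median of 2.08 CPM, with Calb2 (93.4 ± 10.3), Ntng1 (112 ± 23.98) and Rgs16 (2.78 ± 0.436) leading per kb and Gng8 under 0.1 CPM.

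**Figure D3:**
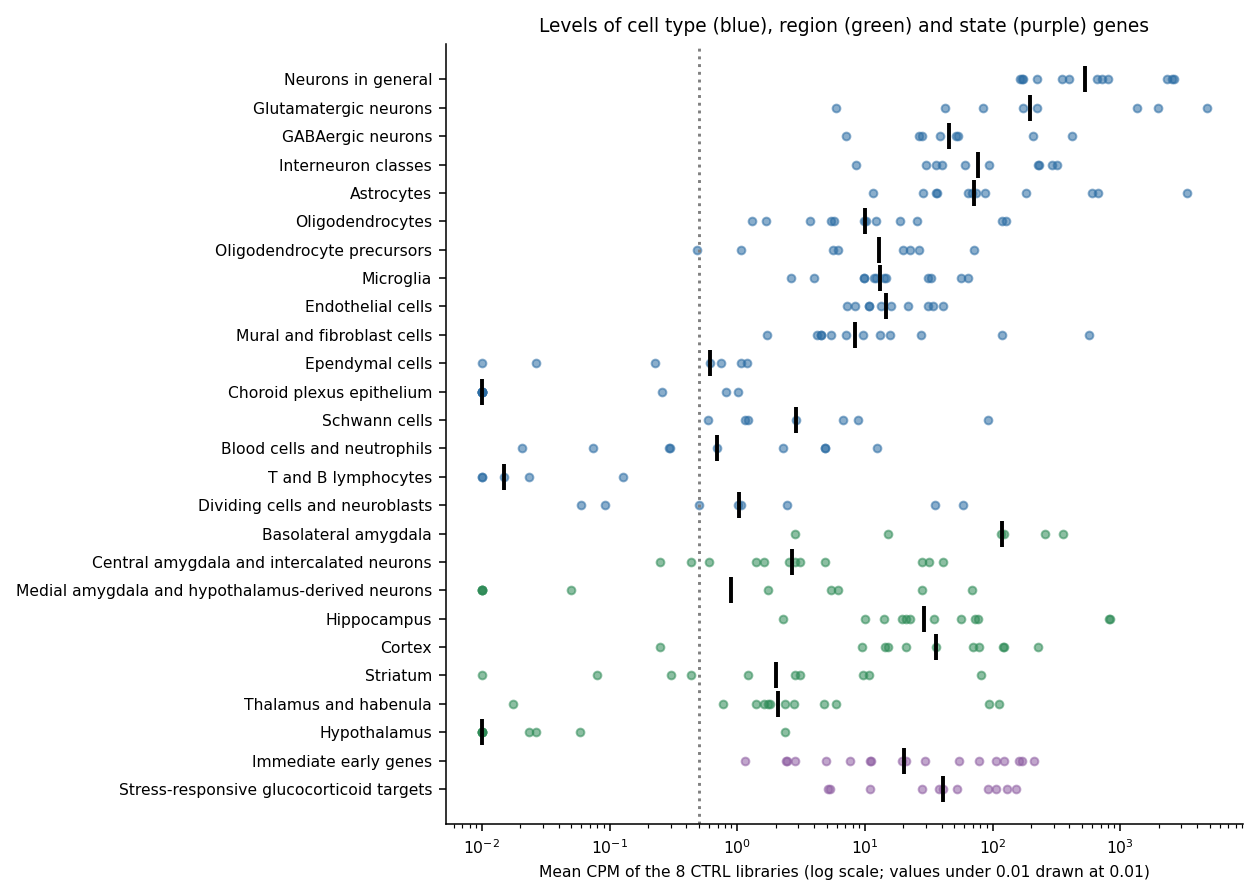
Mean CPM over the 8 CTRL libraries (log axis) of each gene in the cell type (blue), region (green) and state (purple) lists, with the list median as a black bar and the 0.5 CPM line dotted. Neuronal, astrocyte, basolateral, hippocampal and cortical lists lie to the right, and choroid plexus, lymphocyte and hypothalamic lists to the left.

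Neuronal genes dominated the cell type lists. Snap25 (2332 ± 182 CPM), Syt1 (2539 ± 145) and Syn1 (798 ± 49.4) led the 12 general neuronal genes per kb. Among glutamatergic genes Nrgn (1358 ± 146), Camk2a and Slc17a7 were highest, and among GABAergic genes Gad1 (422 ± 55.3), Gad2 (209 ± 36.0) and the vesicular transporter Slc32a1 (53.1 ± 10.8). The summed glutamatergic list ran from 7182 to 9813 CPM and the GABAergic list from 715 to 1063 CPM. Of interneuron genes, Sst, Cck and Calb2 were highest per kb, while Pvalb, the parvalbumin gene, had only 8.44 ± 6.16 CPM, with 7.38, 3.61, 6.32 and 3.69 in males and 8.73, 22.6, 5.20 and 9.97 in females.

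Astrocyte genes followed neuronal ones, with Slc1a2, Aldoc (598 ± 67.3 CPM) and the glutamate transporter Slc1a3 (664 ± 49.2) leading 12 of 12 genes above 0.5 CPM. Oligodendrocyte genes were lower than these. Mbp, which encodes myelin basic protein, had 119 ± 40.4 CPM and Cnp 25.69 ± 7.998. Precursor genes were led per kb by Olig1 (26.4 ± 3.85), Pdgfra (71.5 ± 5.02) and Gpr17 (22.5 ± 5.87).

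Microglial genes (C1qb 14.5 ± 1.41, P2ry12 32.7 ± 1.89 CPM), endothelial genes (Cldn5 16 ± 4.02, Slc2a1 34.0 ± 4.49, Ly6c1 13.3 ± 1.00) and mural and fibroblast genes (Dcn 569.6 ± 220.3, Rgs5 118 ± 8.17, Vtn 27.6 ± 4.59) were each present with all listed members. Dcn alone made up 62.2% of the summed CPM per kb of the mural and fibroblast list, whose median member had 8.39 CPM. Blood was scarce, with the globin genes Hbb-bs (12.3 ± 7.35 CPM), Hba-a2 and Hba-a1 (each 4.89 ± 2.89) highest, and Camp under 0.1 CPM. In the choroid plexus list, 7 of 10 genes were listed at 0, the transthyretin gene Ttr included, as were Folr1, Clic6, Kcne2, Aqp1, Slc4a5 and Otx2; Sostdc1, Kl and Prlr had means from 0.259 to 1.01 CPM. The ependymal genes Rsph1 (1.19 ± 0.281), Rarres2 (1.08 ± 0.193) and Tmem212 (0.228 ± 0.111) were low, and Dynlrb2 and Hdc were under 0.1 CPM. Cd4, Cd3e and Ms4a1 stayed under 0.1 CPM among lymphocyte genes, as did Ccnb1 among genes of dividing cells, where Dcx (58.8 ± 4.74), Sox11 (35.6 ± 7.29) and Igfbpl1 (2.47 ± 0.446) led.

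Levels of activity and stress genes were also read in the unstressed tissue. Of 18 immediate early genes, all above 0.5 CPM, Jun (169 ± 28.9 CPM), Nr4a3 (161 ± 21.9) and Egr3 (107 ± 11.4) led per kb, and Fos, the classical marker of recent activity, had 2.83 ± 1.38 CPM. The 11 glucocorticoid-responsive genes were led by the metallothioneins Mt2 (106 ± 14.4) and Mt1 (130 ± 15.3) and by Zbtb16 (152 ± 36.7).

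For the sexes to be described together, genes that differ between them had to be known. Of 14244 genes tested with limma over all 16 libraries, 8 (0.0562%) differed between CTRL females and CTRL males at an adjusted p under 0.05 and a fold change over 1.5. Xist, Eif2s3x and Mcmdc2 were higher in females, and the Y-linked Ddx3y, Eif2s3y, Kdm5d and Uty were lower together with Gm35612. The paper's own edgeR test of these groups lists these 8 genes and others. Among the others are Prx, S100a8 and S100a9, higher in males, and Ntn5, higher in females. Of 477 tested list members 0 had an adjusted p under 0.05 (limma; 10 of all genes, 0.0702%, had), and 23 (4.82%) did not overlap between the sexes, against 4.23% of all tested genes. Of these 23, 7 were the 7 tested genes of the blood list, all with a higher mean in males (limma adjusted p from 0.157 to 0.868). The sum over all 9 listed blood genes ran from 33.8 to 44.3 CPM in males and from 8.60 to 23.2 CPM in females. The globin gene Hbb-bs had 21.2, 21.5, 15.2 and 16.5 CPM in males and 4.25, 4.54, 11.1 and 4.45 CPM in females. Hba-a1 and Hba-a2, near-identical copies, are listed with equal values and are 1 measurement. What part blood in the tissue had in the other values was not tested. Gm35612 had 0.361 ± 0.129 CPM in females and 1.04 ± 0.194 in males (SD, n = 4 each; log2 difference -0.85, SE 0.14, limma adjusted p = 0.0327). It no longer passed without LM17, LM18, LM20 or LM22, nor with the 8 CTRL libraries fitted alone (limma, adjusted p = 0.101, with a range of 0.00618 to 0.101 over all alternatives).

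Variation between libraries of the same sex was measured as the SD of log2(CPM + 0.5) after the mean of the males and that of the females were taken away. This scale understates changes of low genes. Among 13293 genes with a mean over 1 CPM the median SD was 0.10, and 97 genes (0.73%) had an SD over 0.5. The gene just inside that limit was at 0.5015 and the next outside at 0.4979. Only 7 genes had an SD over 1. Low genes were common in the set, 65 of the 97 having a mean under 10 CPM and 5 a mean over 100 CPM. Of all 13293 tested genes, 9398 had a mean over 10 CPM and 2361 a mean over 100 CPM. In 77 of the 97 the SD was no longer over 0.5 without the library farthest from its group. Leaving out the farthest library lowers the SD of any gene, so this count was partly fixed in advance. The farthest library was LM20 for 21 genes, LM17 for 19, LM22 for 17 and LM21 for 14. LM17 and LM20 also held the highest and lowest shares of the removed directions, and the part of the correction in these counts was not tested.

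The same SD was then computed in the PS libraries. Of the 97 genes, 91 had a mean over 1 CPM there, and 67 of these (73.6%) had an SD over 0.5, where 191 of all 13317 tested genes (1.43%) did. From the other side, 35.1% of the 191 genes of the PS libraries were among the CTRL genes. The authors corrected both sets of libraries together.

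**Figure D4:**
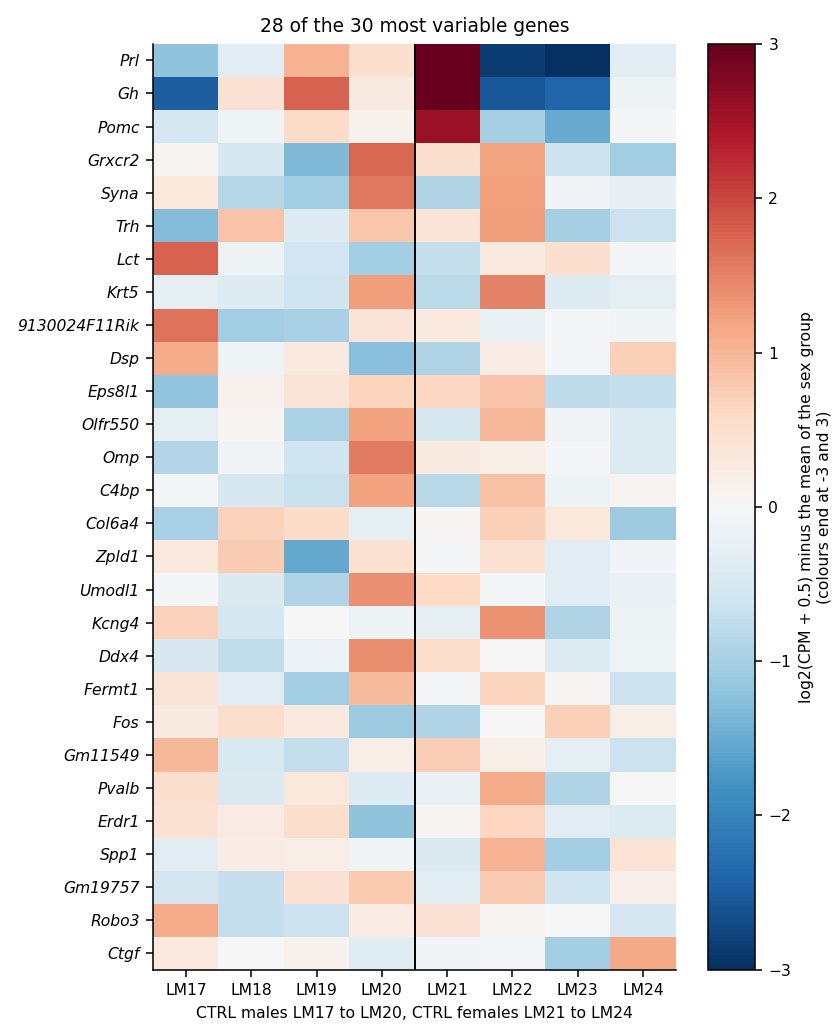
Deviation of log2(CPM + 0.5) from the mean of the sex group for 28 of the 30 genes with the largest SD, by CTRL library. Colours end at -3 and 3. Prl, Gh and Pomc are highest in LM21, Lct and 9130024F11Rik in LM17 among the males, and several genes lie high in LM20 and LM22.

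Pituitary hormone genes headed the list. Prl, which encodes prolactin, had 0.328, 1.03, 3.46 and 2.20 CPM in males and 478, 0.234, 0.0462 and 3.69 CPM in females, LM21 being the library at 478 (SD 3.27). Gh, the growth hormone gene, had 1.05, 11.3, 29.03 and 9.91 CPM in males and 103, 0.0234, 0.0694 and 2.25 CPM in females (SD 2.82). Pomc had 0.586, 0.938, 1.81 and 1.19 CPM in males and 11.97, 0.539, 0.231 and 1.49 CPM in females (SD 1.33). A set of 12 pituitary genes chosen after these values were seen (Prl, Gh, Pomc, Cga, Tshb, Lhb, Fshb, Pou1f1, Ghrhr, Gnrhr, Pitx1 and Tbx19) had its highest CTRL value in LM21 for 12 of 12 genes. Several of these values were near 0, with Tshb, Lhb, Pitx1 and Tbx19 under 0.1 CPM even in LM21. Pou1f1, the transcription factor of prolactin and growth hormone cells, had 0.187 CPM in LM21 and was listed at 0 in the other 7 libraries.

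In the pituitary, prolactin transcription depends on Pou1f1, which binds AT-rich sites before the gene. The Prl window is shown as that of the most variable gene (250 bases before the RefSeq start, GRCm38.p6, chr13:27057320-27057569, plus strand). Capitals mark matches to the core letters TATNCAT or their reverse complement ATGNATA.
Prl: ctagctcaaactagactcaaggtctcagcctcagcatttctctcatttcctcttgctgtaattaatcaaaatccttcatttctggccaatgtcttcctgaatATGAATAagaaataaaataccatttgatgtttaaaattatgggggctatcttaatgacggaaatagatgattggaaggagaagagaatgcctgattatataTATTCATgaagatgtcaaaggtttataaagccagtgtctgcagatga
The window held 2 matches, and 7.92% of the 32851 promoters held at least 1 within 250 bases upstream. Gh is named only.

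Myelin genes varied as a group. Of 12 oligodendrocyte genes, 5 had an SD over 0.5, Mobp, Ugt8a, Mbp and Mal among them, beside 0.73% of all genes, and the median of the list was 0.49. Mbp had 123, 189, 117 and 103 CPM in males and 56.4, 159.7, 110.5 and 93.0 CPM in females. LM21 was lowest for 12 of 12 genes, LM18 was highest for 9 and LM22 for the other 3. Summed, the list had 154 CPM in LM21 and 562.1 CPM in LM18, and in a tissue piece fewer cells of a type and less RNA per cell cannot be told apart. Of 7 tested precursor genes 0 had an SD over 0.5, beside 0.73% of all genes. Their median SD was 0.22, beside 0.10 for all genes, and 6 were highest in LM18.

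**Figure D5:**
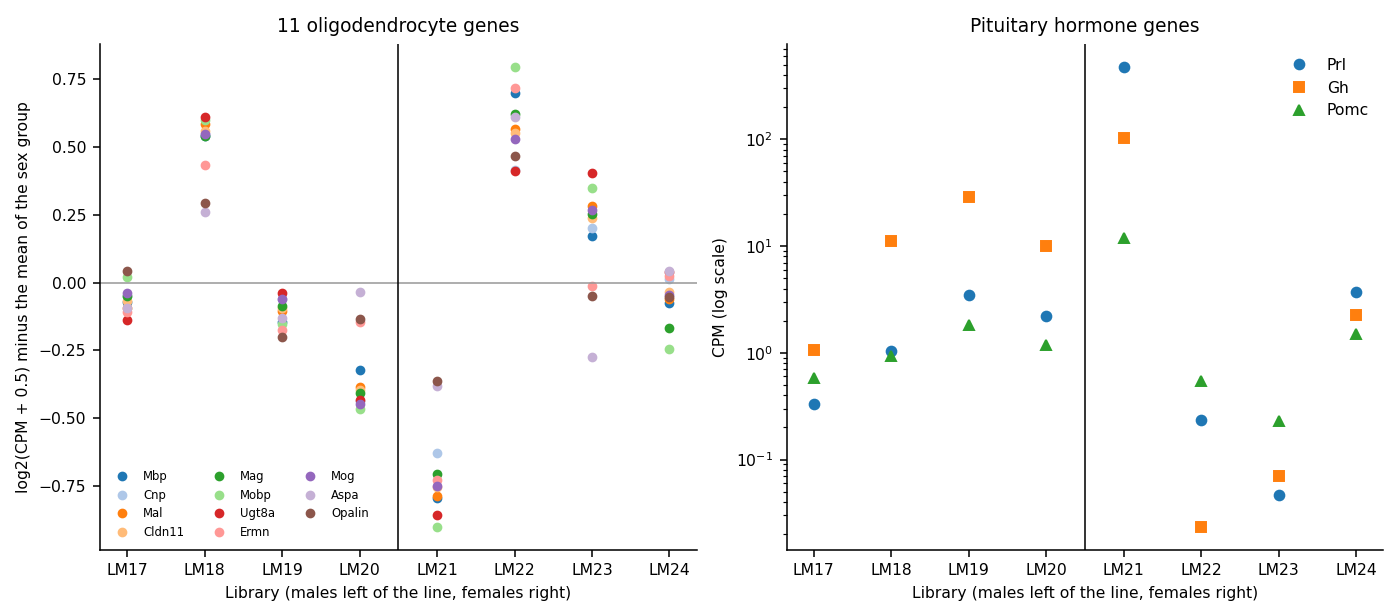
Left, deviations of 11 oligodendrocyte genes from the mean of their sex group by CTRL library (log2 scale). Right, CPM of Prl, Gh and Pomc in the same libraries (log axis). LM21 is lowest for all 11 oligodendrocyte genes and highest for the 3 hormone genes.

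Several genes of peripheral myelin varied too, with other libraries at the top. Of 6 tested Schwann cell genes 4 had an SD over 0.5, Prx, Ncmap and Pmp22 among them, beside 0.73% of all genes. Drp2 (91.4 ± 6.36 CPM) and Pmp22 (8.77 ± 3.70) were the highest of the list per kb. Drp2 had the lowest SD of the tested genes (0.09, beside a median of 0.10 for all genes). Prx, which encodes periaxin, had 13.02, 12.77, 13.01 and 5.49 CPM in males and 1.75, 4.78, 1.46 and 2.03 CPM in females (SD 0.61). The sexes did not overlap, but there was no call in limma (adjusted p = 0.688), whereas the paper's edgeR test lists Prx as higher in control males. LM17 was highest for 3 of the 6, unlike LM18 for the oligodendrocyte genes.

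Principal neuron and hippocampal genes marked other libraries. Lct, the lactase gene, listed here with hippocampal genes, had 126, 32.9, 24.6 and 17.9 CPM in males and 60.3, 120, 137 and 95.2 CPM in females (SD 0.94). Neurod6 split the males, with 281 CPM in LM17 and 260 CPM in LM20 but 107 and 106 CPM in LM18 and LM19 (SD 0.56).

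Of 12 hippocampal genes 4 had an SD over 0.5 (Lct, Dsp, C1ql2 and Tdo2), beside 0.73% of all genes, and 6 of the 12 were highest in LM22. C1ql2 had 65.5, 20.4, 39.7 and 31.2 CPM in males and 75.7, 131, 95.5 and 122 CPM in females, all females above all males without passing limma (log2 difference 1.51). LM17 had the highest glutamatergic sum (9813 CPM), and LM19 the highest GABAergic sum (1063 CPM), with 6 of 8 GABAergic genes and 5 of 6 tested striatal genes at their highest in LM19. Rgs9 was the striatal gene with an SD over 0.5 and Penk the central amygdala gene. Of 8 GABAergic genes 0 passed, with a median SD of 0.25. Astrocyte genes had a median SD of 0.13, beside 0.10 for all genes. Of 12 astrocyte genes 0 had an SD over 0.5, beside 0.73% of all genes, and 9 were highest in LM24. What part differences in dissection had in these patterns was not tested.

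Of 232 tested receptor and channel genes 2 (0.862%) had an SD over 0.5, beside 0.73% of all genes, and their median SD was 0.15, beside 0.10 for all genes. Chrna5 (SD 0.54), with 23.9, 7.60, 11.3 and 9.41 CPM in males and 20.3, 15.7, 15.2 and 25.3 CPM in females, was the receptor gene with an SD over 0.5, and Kcng4 (SD 0.76), at 5.85 CPM in LM22 and 0.505 to 1.83 CPM elsewhere, the channel gene. Among peptides Trh joined Pomc and Penk, with 10, 46.5, 19.5 and 45.6 CPM in males and 18.8, 34.7, 6.87 and 8.85 CPM in females (SD 1.03). The medians of the 31 receptor and channel families lay between 0.05 and 0.33, 27 of them above that of all genes, the highest being that of the 2 tested dopamine receptors.

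Immediate early genes gave 3 of 18 over the limit, Fos, Arc and Fosb, beside 0.73% of all genes. Fos had 3.77, 4.62, 3.91 and 1.19 CPM in males and 0.887, 2.08, 3.75 and 2.44 CPM in females, and Arc, a synaptic plasticity gene, had 27.8, 24.4, 17.5 and 9.50 CPM in males and 12.5, 20.2, 20.5 and 22.6 CPM in females. LM20 and LM21 were at the low end of both. LM20 was lowest for 8 and LM21 for 6 of the 18 genes, while LM18 was highest for 7. Of the 11 glucocorticoid-responsive genes 0 had an SD over 0.5, beside 0.73% of all genes. Their median SD was 0.26, beside 0.10 for all genes. LM20 was lowest for 5 of them and LM18 highest for 5.

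Most of the remaining genes of the first 30 belonged to no list and were scarce. Krt5, a keratin of basal epithelium, had 2.02, 1.83, 1.501 and 6.75 CPM in males and 2.47, 14.2, 3.44 and 3.74 CPM in females. It shared high values in LM20 and LM22 with Grxcr2 (14.9 and 12.8 CPM), Syna (36.9 and 62.9 CPM), Olfr550 (10.2 and 13.1 CPM), C4bp (8.52 and 7.89 CPM) and Fermt1 (3.55 and 3.21 CPM). Omp, the olfactory marker protein gene (4.58 CPM), Umodl1 (3.57 CPM) and the germ cell helicase gene Ddx4 (36.5 CPM) were highest in LM20, and Zpld1 was low in LM19 (0.191 CPM).

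Pvalb, Spp1 (5.97 CPM) and Gm19757 (18.01 CPM) were highest in LM22. Ctgf, a gene of deep cortical neurons and connective tissue, was highest in LM24 (28.1 CPM), Dsp was highest in LM24 (23.3 CPM) and lowest in LM20 (1.37 CPM), and Erdr1 was lowest in LM20 (1.14 CPM). Among the males 9130024F11Rik (16.7 CPM), Robo3 (10.7 CPM) and Gm11549 (26.03 CPM) were highest and Eps8l1 (15.6 CPM) and Col6a4 (1.03 CPM) lowest in LM17. Of the 30 genes 26 also had an SD over 0.5 in the PS libraries. In mural and fibroblast cells the smooth muscle genes Acta2 and Tagln passed 0.5 as well.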

How the data were processed

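Amygdala RNA of 16 mice was sequenced by the authors as directional poly(A) libraries with single reads. Per the labels and the study's methods, uniquely aligned reads (STAR, mm10) were counted per gene with featureCounts, factors of unwanted variation were removed with RUVs, and genes were tested with edgeR. Versions and the strand setting are not given in the sources used here. The deposited CPM were computed by the authors from corrected values, which the deposited columns named raw hold and which are treated here as a score. These are no read counts, so the count model foreseen was replaced by limma. The 12 deposited columns with log2 fold changes, p-values and FDR, which the authors took from edgeR, were not used.

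Symbols were matched to GENCODE M21 (17116 genes, 223 by an older symbol) for exon lengths, coordinates and overlaps. Promoters came from RefSeq (GRCm38.p6). Sexes were compared with limma 3.58.1 (R 4.3.3) on log2(CPM + 0.5), scaled by TMM factors (0.9691 to 1.035 in CTRL), over all 16 libraries, with 2 removed directions in the model and 10 residual degrees of freedom. Benjamini-Hochberg adjustment covered all genes tested. Neighbours in a family were members with a mean over 0.5 CPM, compared by an exact two-sided sign-flip permutation test (256 flips, 0.01 CPM added), adjusted over all pairs. Litters of males and females were not matched by any label, so p-values measure the spread between these animals.

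Named genes were the 20 highest by CPM and by CPM per kb, the first 3 of each list (12 for neuropeptide precursors and receptors), list members under 0.1 CPM in all CTRL libraries, the 30 largest SDs, list members with an SD over 0.5 and every gene that differed between the sexes. Others are said to be chosen after their values were seen, or are compared with one of these. A few genes covered by this rule are not reported here. Members and lists were chosen with earlier results of these data known. Tested on simulated data, limma recovered 99 of 100 genes changed 2-fold and 100 of 100 changed 4-fold, with 2 false calls among 14244 genes. That simulated fit did not hold the 2 removed directions. The SD limit recovered 182 of 200 variable genes with 0 false calls among 13293. There, all unchanged genes had the same SD, well below the limit, and all variable genes the same SD above it. The simulation therefore cannot tell how often genes near the limit, or scarce genes, are called falsely.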

Additional observations from a re-analysis of the deposited data

Results flagged for a closer look

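In groups of 4 libraries, a library was singled out when its gap to the nearest other exceeded 0.829 of the group's range, as chance alone gives in about 1 of 20 groups. Genes among the 20 most abundant, the first members of signalling families and the 30 most variable were examined, 76 genes in 152 groups, and 10 groups (6.58%) were singled out. In CTRL females LM21 stood apart at 477.7 CPM for Prl (others up to 3.69), 103.1 CPM for Gh (others up to 2.25) and 11.97 CPM for Pomc (others up to 1.49). LM22 stood apart at 14.17 CPM for Krt5 (others 2.47 to 3.74) and, on the low side, 2298 CPM for Gpm6a (others 2499 to 2533). In CTRL males LM17 stood apart at 125.9 CPM for Lct (others 17.9 to 32.9) and, on the low side, 2094 CPM for Gria2 (others 2179 to 2195). LM20 stood apart at 6.752 CPM for Krt5 (others 1.501 to 2.02), 4.578 CPM for Omp (others 0.445 to 1.13) and 36.46 CPM for Ddx4 (others 7.96 to 11.9). Most of these genes were chosen for their spread, so the flags describe which library carried it. For Gpm6a and Gria2 the gap was small beside the level.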

How the results depend on the processing

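The count of variable genes depended on the scale. It was 148 with 0.1 CPM added in place of 0.5 (all 97 among them), 57 with 1 CPM added, 47 with a minimum mean of 5 CPM, and 361 when the limit was 3 times the running median of the SD at the same level (91 of the 97 among them), while a minimum mean of 0.5 CPM gave 107 and TMM scaling 99. Without 1 library at a time it ran from 94 to 113. Sst over Cck per kb turned to -0.2005 and Kcnma1 over Kcnn2 to -0.1723 (log2) with the length of the longest transcript. The other first pairs kept their order, and all but 1 of them their call, including without 1 library at a time. Without 1 library at a time 125 to 134 neighbour pairs were separated. Genes that differed between the sexes numbered 7 to 11 over the alternatives (11 without the removed directions in the model, 7 with CTRL libraries alone, 7 to 8 without 1 library at a time), and expressed genes 13384 to 15819. The 1917 mean levels computed with TMM scaling or without 1 library moved by less than 1 SD. Leaving out 1 of 8 libraries cannot move a mean by that much, so only the TMM setting could have failed. Of the SDs of the 30 most variable genes under the alternatives, 311 moved by less than their standard error and 19 by more. No paired analysis was possible because the groups share no replicate numbers. Values corrected by the authors hide read depth, so no limit of detection can be set for genes listed at 0, and 8 libraries limit what the orders can separate.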

Other observations

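Pituitary hormone genes were also uneven in the PS libraries. Prl had 187.4 CPM in LM30 and 50.32 CPM in LM32, both PS females, and at most 1.475 CPM in the other 6 PS libraries. Gh had 81.0 CPM in LM30 and 13.28 CPM in LM32, and Pomc 20.91 and 4.608 CPM.

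The 45S ribosomal precursor Rn45s had 7337 ± 927 CPM in CTRL males and 5090 ± 608 CPM in CTRL females (SD, n = 4 each), without overlap and without passing limma (log2 difference -0.54, adjusted p = 0.868).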
